A study of Mus musculus with 6 samples.

Results

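Collagens II, IX and XI build the thin striated fibrils of cartilage, and their 6 genes, Col2a1, Col9a1, Col9a2, Col9a3, Col11a1 and Col11a2, were read out in the hypertrophic zone of the growth plate of mice with and without the secreted metalloprotease Adamts17. The genes were chosen by symbol. All 6 were found among the 14882 genes of the deposited table, and all 6 were among the 9128 genes tested.

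Collagen II, a homotrimer of the Col2a1 product, forms the bulk of the cartilage fibril. Collagen XI, whose chains come from Col11a1, Col11a2 and a modified Col2a1 product, lies inside the fibril and limits its width. Collagen IX, a heterotrimer with 1 chain from each Col9 gene, is crosslinked to the fibril surface and links it to other matrix proteins. Chondrocytes make these chains in the resting and proliferative zones and make less of them as they enlarge and turn to collagen X, the product of Col10a1.

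Laser-microdissected hypertrophic zones of the proximal tibia came from C57BL/6 mice aged 7 days. There were 3 libraries from wild-type (WT) mice and 3 from Adamts17-/- littermates, described by the labels as homozygous mutants with no further detail of the allele. The mRNA was linearly amplified before library construction. Nothing in the labels besides the word littermates says that each library is 1 animal, so any p-value here reflects variation among libraries, which may be technical.

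The sequence shared by the 6 genes is the glycine repeat of the collagen helix, in which codons recur as 1 glycine codon, GGN, followed by 2 others. In the GENCODE M21 annotation of the GRCm38 genome, the longest unbroken run held 339 such repeats in Col2a1, and 338 in both Col11a1 and Col11a2. In each Col9 gene the longest run held 113 repeats, and the repeats were split over 5 runs of at least 10. The runs, in order, numbered 30, 16, 113, 21 and 11 repeats in Col9a1, 30, 16, 113, 21 and 10 in Col9a2, and 30, 17, 113, 20 and 10 in Col9a3. In the other 3 genes a shorter run of at least 10 repeats came before the longest, with 20 repeats in Col2a1 and 17 in both Col11a1 and Col11a2. The long unbroken runs belong to the fibril-forming chains and the broken runs to the fibril-associated chains.

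Many exons of these genes are exactly 54 bases long, the length of 6 repeats: 24 of 54 coding exons in Col2a1, 31 of 67 in Col11a1, 31 of 64 in Col11a2, 14 of 38 in Col9a1, and 14 of 32 in both Col9a2 and Col9a3. The first such exon inside the longest run is given for each gene, to show what the members have in common and how far they differ. It is exon 10 of Col2a1 (chr15:97996489-97996542, minus strand), exon 15 of Col11a1 (chr3:114108281-114108334, plus strand) and exon 13 of Col11a2 (chr17:34051480-34051533, plus strand). For collagen IX it is exon 18 of Col9a1 (chr1:24210373-24210426), exon 12 of Col9a2 (chr4:121045141-121045194) and exon 12 of Col9a3 (chr2:180605727-180605780), all on the plus strand. Each is written 5′ to 3′ on the coding strand, and the capitals mark the GG that opens each glycine codon.
Col2a1: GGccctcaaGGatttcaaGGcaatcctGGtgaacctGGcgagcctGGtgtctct
Col11a1: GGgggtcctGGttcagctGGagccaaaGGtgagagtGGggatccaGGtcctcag
Col11a2: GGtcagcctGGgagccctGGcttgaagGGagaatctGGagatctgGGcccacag
Col9a1: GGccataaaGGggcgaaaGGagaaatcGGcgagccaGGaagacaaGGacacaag
Col9a2: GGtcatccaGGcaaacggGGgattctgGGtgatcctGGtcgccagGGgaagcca
Col9a3: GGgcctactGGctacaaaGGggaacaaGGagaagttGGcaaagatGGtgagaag
Between pairs of these exons, 22 to 31 of the 54 bases were identical, the fixed GG included. The highest of the 15 counts, 31, was between Col11a1 and Col11a2.

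The libraries were shallow and uneven. Listed genes took 595989 to 2688295 read equivalents (RPKM times transcript length, divided by the value of 1 read in that library), and 2.63% to 21.2% of genes were listed at 0. Adamts17 was at 0.246, 0.0407 and 0.397 RPKM in WT and at 0.0085, 0.0870 and 0.0260 in Adamts17-/-, too low to test. The groups overlapped, and the deleted part of the gene is not given by the labels, so these values do not check the genotypes. The zone was checked by its markers. Col10a1, the defining collagen of hypertrophic cartilage, was at 1437 RPKM or more in all 6 libraries. Of 10 hypertrophic chondrocyte markers only Sp7 was at 0 in any library, in WT replicates 1 and 3 and Adamts17-/- replicate 3. Of 11 cartilage markers, which include the 6 collagens, 11 were above 0 in 5 libraries and 10 in Adamts17-/- replicate 3. Since at most 21.2% of all genes were at 0 in a library, these counts say little about the zone. WT replicate 1 stood apart in skeletal muscle genes, and Adamts17-/- replicate 2 in erythroid and neutrophil genes. The fold changes of the 6 collagens and the differences in ratios are therefore also given without them. The other results are not.

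All 6 collagen genes had a lower mean log2 level in the Adamts17-/- libraries, and none of the differences passed the test. Log2 fold changes ran from -2.06 for Col9a1 to -0.44 for Col11a2, with a median of -1.59. The median over all tested genes was 0.077, and 47.2% of them had a log2 fold change below 0. A value of -1 or less was found for 5 of the 6 collagens and for 19% of all tested genes. All 6 collagens were highest in WT replicate 2, so these are not 6 separate results. Among the 1051 tested genes with a mean log2 level of at least 5, the median log2 fold change was 0.37. Across all genes limma called 0% higher and 0% lower at an adjusted p under 0.05. At an unadjusted p under 0.05 it found 1.37% of genes lower and 1.14% higher, and 0 of the 6 collagens. In bulk tissue, fewer cells of a type and less RNA per cell cannot be told apart.

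**Figure D1:**
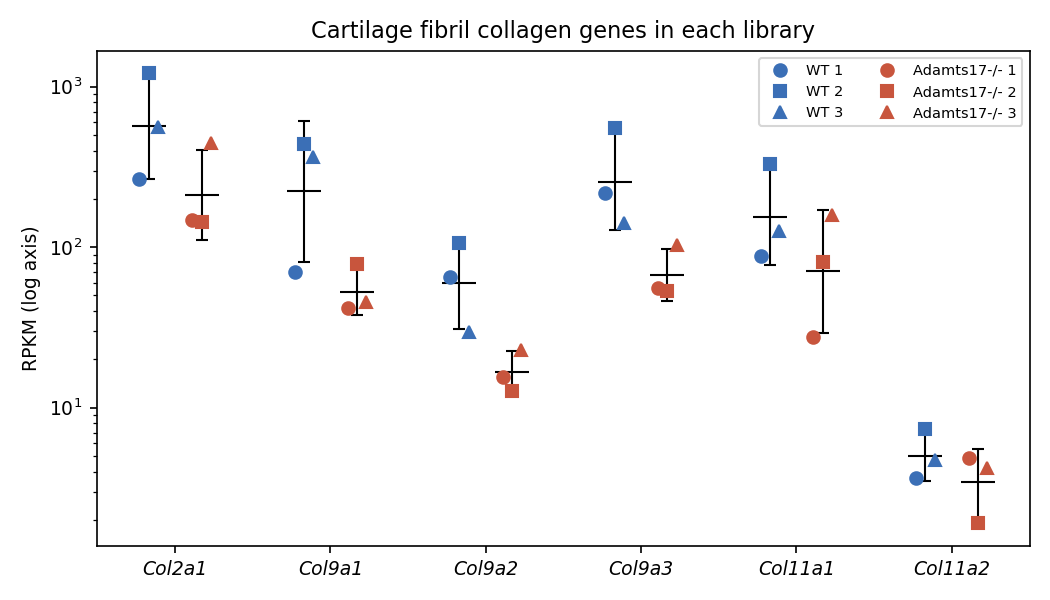
RPKM of each collagen gene (log axis) in the 3 WT libraries (blue) and the 3 Adamts17-/- libraries (red), with symbols for the replicate number and black bars for the group mean ± SD on the log2(RPKM + 1) scale (n = 3). Groups do not overlap for Col9a2 and Col9a3, and overlap for the other 4 genes.

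Col2a1 had the highest RPKM of the 6 genes in every library. It was at 265, 1212 and 560 RPKM in WT replicates 1, 2 and 3, and at 148, 144 and 448 in Adamts17-/- replicates 1, 2 and 3. WT replicate 2 was the highest library and Adamts17-/- replicates 1 and 2 were the lowest, while Adamts17-/- replicate 3 lay above WT replicate 1, so the groups overlapped. With limma the difference came to -1.41 ± 1.05 on the log2 scale (SE, n = 3 and 3, adjusted p = 0.999), with a 95% interval of -3.54 to 0.73. Col2a1 ranked between 27 and 635 among the 14882 genes of a library.

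Among the collagen IX genes, which supply the fibril surface, Col9a1 was at 69.7, 442 and 363 RPKM in WT and at 41.6, 78.3 and 45.4 in Adamts17-/-. WT replicates 2 and 3 were high, and WT replicate 1 lay within the range of the Adamts17-/- libraries. With limma the difference came to -2.06 ± 1.17 on the log2 scale (SE, n = 3 and 3, unadjusted p = 0.0886, adjusted p = 0.999), the largest in size of the 6. The Col9a1 row, like that of Col2a1, merges a pair of RefSeq transcripts, which the table does not separate.

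Col9a3 was at 216, 550 and 141 RPKM in WT and at 55.5, 53.4 and 103 in Adamts17-/-. Each Adamts17-/- library was under the lowest WT library. With limma the difference came to -1.91 ± 1.13 on the log2 scale (SE, n = 3 and 3, unadjusted p = 0.101, adjusted p = 0.999).

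Col9a2, the lowest of the collagen IX genes in each library, was at 65.5, 107 and 29.8 RPKM in WT and at 15.6, 12.7 and 23.0 in Adamts17-/-. Here too the groups did not overlap, and the highest Adamts17-/- library was close under the lowest WT library. With limma the difference came to -1.78 ± 1.31 on the log2 scale (SE, n = 3 and 3, unadjusted p = 0.184, adjusted p = 0.999). Over all tested genes, 3.54% had no overlap with Adamts17-/- lower and 3.09% with Adamts17-/- higher. Among the 6 collagens these were Col9a2 and Col9a3, both lower. Which genes separated depended on the scaling. With upper-quartile scaling or quantile normalization they were Col9a1, Col9a2 and Col9a3, against 4.54% and 3.16% of all genes in this direction. With scaling to equal sums of listed values they were Col9a1 and Col9a3 but not Col9a2, against 5.67% of all genes.

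Of the collagen XI genes, which set fibril width, Col11a1 was at 87.9, 329 and 126 RPKM in WT and at 27.7, 80.4 and 159 in Adamts17-/-. Adamts17-/- replicate 3 lay above 2 of the 3 WT libraries. With limma the difference came to -1.11 ± 1.18 on the log2 scale (SE, n = 3 and 3, adjusted p = 0.999). Col11a2 was at 3.62, 7.34 and 4.69 RPKM in WT and at 4.86, 1.91 and 4.196 in Adamts17-/-. Its groups overlapped almost fully, and with limma the difference came to -0.44 ± 1.55 on the log2 scale (SE, n = 3 and 3, adjusted p = 0.999), with a 95% interval of -3.59 to 2.71. Col11a2 rested on 15 to 58 read equivalents per library, against 781 to 4889 for Col2a1, so its level was the least precise.

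**Figure D2:**
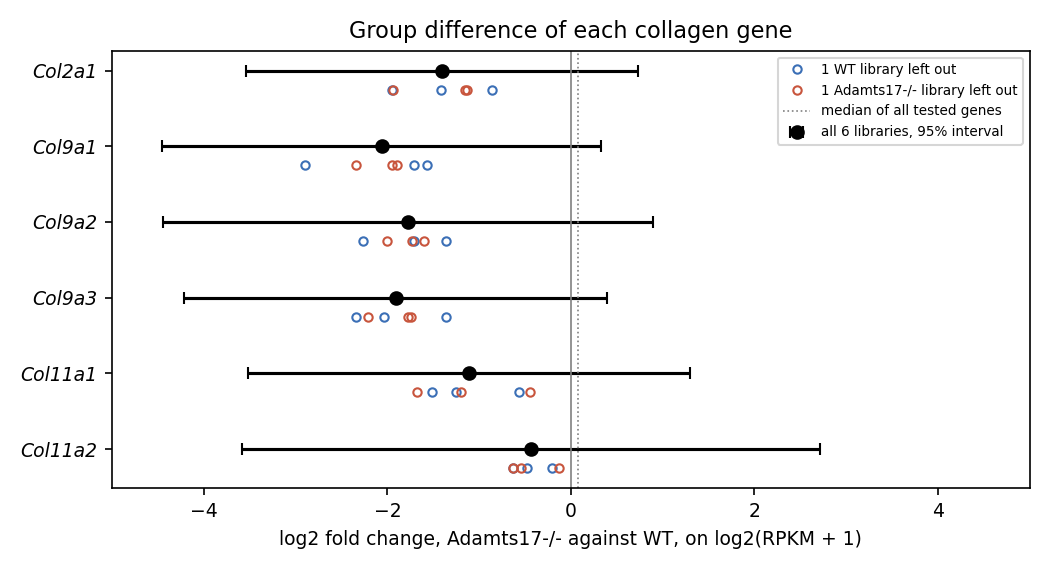
Log2 fold change of each collagen gene, Adamts17-/- against WT, on the log2(RPKM + 1) scale, with its 95% interval (black) and the value with 1 library left out (open circles, blue for a WT and red for an Adamts17-/- library). All values lie below 0, every interval crosses 0, and the dotted line is the median of all tested genes, 0.077.

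Leaving out any 1 library kept the sign of all 6 fold changes, and 0 of them passed the test. The same was so without both WT replicate 1 and Adamts17-/- replicate 2, where Col9a1 was at -3.17, Col9a3 at -1.87, Col2a1 at -1.67, Col11a1 at -1.60, Col9a2 at -1.53 and Col11a2 at -0.32. Several values rested on 1 library: without WT replicate 2, the highest library of every gene, Col2a1 was at -0.86 and Col11a1 at -0.56, and without Adamts17-/- replicate 1 Col11a1 was at -0.44. Genes without overlap numbered 4 of 6 without WT replicate 1 (Col2a1 and the Col9 genes), where 5.92% of all genes did not overlap in this direction. They also numbered 4 of 6 without Adamts17-/- replicate 3 (Col2a1, Col9a2, Col9a3 and Col11a1), against 7.18% of all genes. Without both WT replicate 1 and Adamts17-/- replicate 2 they numbered 4 of 6, against 12.5% of all genes. Without Adamts17-/- replicate 2 alone they numbered 3 of 6, against 9.89%. Without WT replicate 2, WT replicate 3 or Adamts17-/- replicate 1 they stayed at 2 of 6, against 7.87%, 7.67% and 7.73%.

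Ordered by their median RPKM over the 6 libraries, the genes ran Col2a1 (356), Col9a3 (122), Col11a1 (107), Col9a1 (74.0), Col9a2 (26.4) and Col11a2 (4.44). Col2a1 was above Col9a3, Col9a1 above Col9a2, and Col9a2 above Col11a2 in 6 of 6 libraries, by more than the SD of the difference between libraries. The middle neighbours did not differ beyond their spread. Col9a3 was above Col11a1 in 4 of 6 libraries (mean log2 difference 0.33, SD 0.81), and Col11a1 above Col9a1 in 3 of 6 (-0.06, SD 1.10). The chains of a collagen IX trimer are needed in equal number, and the RPKM of their genes was not equal. The RPKM of Col9a3 was 3.30 to 5.16 times that of Col9a2 over all 6 libraries. The ratio of Col9a1 to Col9a2 ran from 1.06 in WT replicate 1 to 12.2 in WT replicate 3. Whether amplification of the mRNA shifted the ratios between genes was not tested, so unequal RPKM need not mean unequal RNA. Of the 15 pairs of collagens, Col9a2 and Col9a3 kept the steadiest ratio, with an SD of 0.25 on the log2 scale, and Col9a1 and Col11a2 the least steady, with an SD of 1.31. The ratio of Col11a1 to Col11a2 was between 24.3 and 44.8 in 5 libraries and 5.70 in Adamts17-/- replicate 1.

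The 6 genes together made up 0.244%, 0.622% and 0.222% of the summed RPKM of all listed genes in WT, and 0.0623%, 0.0340% and 0.190% in Adamts17-/-. The groups did not overlap in this share, although Adamts17-/- replicate 3 was close to WT replicates 1 and 3. Before division by the listed sum they did overlap, with 782 RPKM in Adamts17-/- replicate 3 and 708 in WT replicate 1. The listed sums differed widely, from 290367 in WT replicate 1 to 1091350 in Adamts17-/- replicate 2, where erythroid markers summed to 264419. Scaled to equal listed sums, 5.67% of all tested genes did not overlap with Adamts17-/- lower. How far blood RNA moved the share was not tested. Within the 6 genes, the collagen IX genes took 49.6%, 41.5% and 43.6% of the summed RPKM in WT and 38.4%, 38.9% and 22.0% in Adamts17-/-. The nearest values of the groups were 41.5% in WT replicate 2 and 38.9% in Adamts17-/- replicate 2. The collagen XI genes took 12.9%, 12.7% and 10.7% in WT and 11.1%, 22.2% and 20.8% in Adamts17-/-. Col2a1 took 37.4% to 45.8% in WT and 38.9% to 57.2% in Adamts17-/-. These shares are a description of sums over the chosen genes and were given no test. No background from other sets of genes was taken for them. Tested singly, the ratios of the Col9 genes to Col2a1 gave exact permutation p of 0.4 to 0.8.

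**Figure D3:**
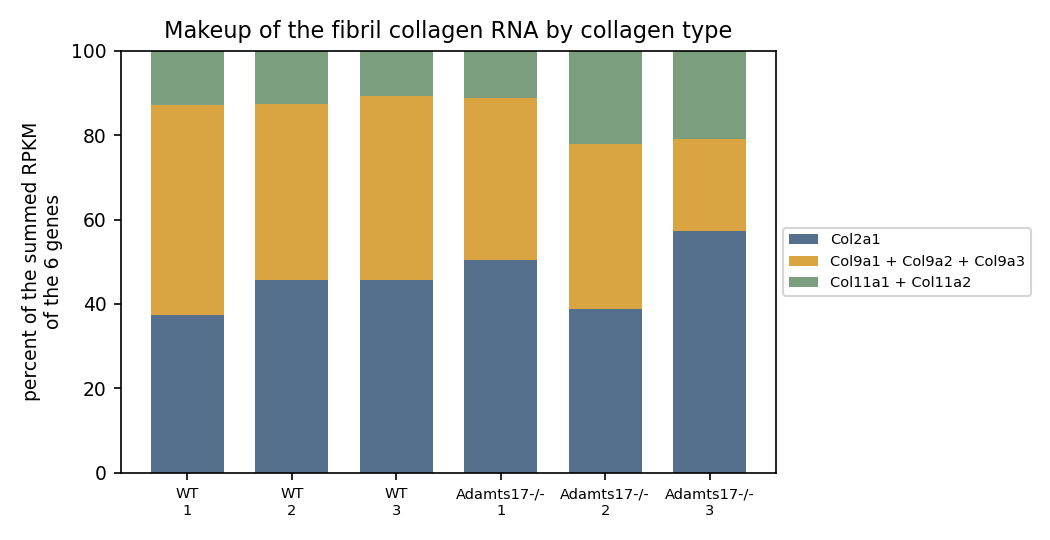
Percent of the summed RPKM of the 6 genes taken by Col2a1, by the 3 Col9 genes and by the 2 Col11 genes in each library. The collagen IX part is 41.5% to 49.6% in WT and 22.0% to 38.9% in Adamts17-/-.

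Whether each gene kept its proportion to Col2a1 was tested one gene at a time, as the log2 ratio within a library. Exact permutation tests over 6 ratios (two-sided, 3 against 3, smallest possible p 0.1) gave p from 0.2 to 0.9 and an adjusted p of 0.9 for all. The largest difference was that of Col11a2, whose log2 ratio to Col2a1 averaged -6.55 ± 0.67 over the WT and -5.58 ± 0.88 over the Adamts17-/- libraries (SD, n = 3, exact permutation p = 0.2). This difference of 0.97 was 1.57 with quantile normalization and ran from 0.51 to 1.40 when single libraries were left out. For Col9a1 it averaged -1.33 ± 0.65 over the WT and -1.98 ± 1.21 over the Adamts17-/- libraries (SD, n = 3, exact permutation p = 0.5). Its difference of -0.65 was -0.0097 without Adamts17-/- replicate 3 and -1.21 without Adamts17-/- replicate 2. Differences between Adamts17-/- and WT were -0.37 for Col9a2, -0.50 for Col9a3 and 0.30 for Col11a1. That of Col9a3 ran from -0.92 without WT replicate 3 to -0.080 without WT replicate 1. The difference of Col9a2 turned to 0.24 without WT replicate 1, and that of Col11a1 to -0.068 without Adamts17-/- replicate 2. Without both WT replicate 1 and Adamts17-/- replicate 2, the difference was -1.50 for Col9a1, 0.15 for Col9a2 and -0.19 for Col9a3. It was then 0.075 for Col11a1 and 1.35 for Col11a2.

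The steadiest ratio of Col2a1 was to Col10a1, not to another fibril collagen. The RPKM of Col10a1 was 8.37, 11.0 and 10.5 times that of Col2a1 in WT, and 9.70, 10.5 and 9.27 times in Adamts17-/-. The highest ratio was 1.32 times the lowest, while Col2a1 itself ranged from 144 to 1212 RPKM. The log2 ratio of Col2a1 to Col10a1 averaged -3.30 ± 0.21 over the WT and -3.29 ± 0.085 over the Adamts17-/- libraries (SD, n = 3, exact permutation p = 0.9), a difference of 0.016 that ran from -0.063 to 0.14 with 1 library left out. Both genes were highest in WT replicate 2 and low in Adamts17-/- replicates 1 and 2. The difference came to 0.18 without WT replicate 1 and Adamts17-/- replicate 2.

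Ranked by the SD of their log2 ratio to Col2a1 over the 6 libraries, Col10a1 was the first of 9127 tested genes, with an SD of 0.15, and Acan, the aggrecan core protein, was the second, with 0.27. Col11a1 ranked 25 (SD 0.55), Col9a3 51 (0.65), Col9a2 125 (0.82), Col11a2 197 (0.88) and Col9a1 275 (0.94), and the median gene had an SD of 2.06. Counting error is smaller in highly expressed genes, so the ranks were also taken among them. Among the 1174 genes with a mean of at least 50 RPKM, whose median SD was 2.09, Col10a1 and Acan were again the first and the second. Col10a1 ranked 1 with any 1 library left out except Adamts17-/- replicate 3, where it ranked 2. Acan ranked 2 to 16 in the same comparison, 16 without WT replicate 2. The ranks of the fibril collagens were less stable: 10 to 192 for Col11a1, 13 to 351 for Col9a3, 23 to 773 for Col9a2, 109 to 490 for Col11a2 and 48 to 1195 for Col9a1.

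**Figure D4:**
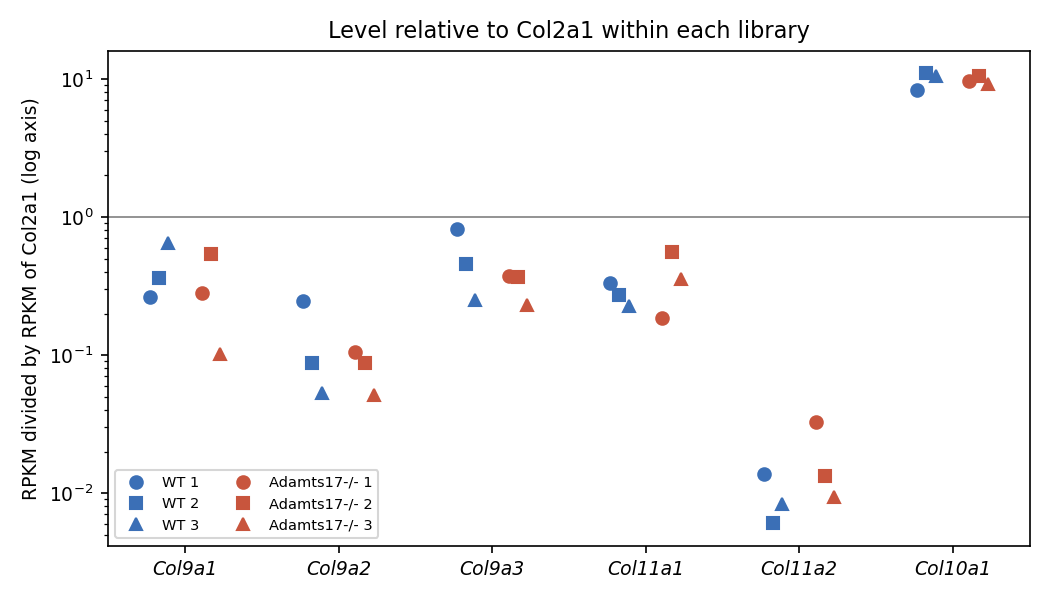
RPKM of 5 collagen genes and of Col10a1 divided by the RPKM of Col2a1 in the same library (log axis), 3 WT libraries in blue and 3 Adamts17-/- libraries in red. The ratio of Col10a1 stays between 8.37 and 11.0, while that of Col9a1 ranges from about 0.102 to 0.648.

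Genes with the pattern most like the mean of the 6 collagens were sought by the root mean square difference of their centred log2 levels over the 6 libraries, among 1171 other tested genes with a mean of at least 50 RPKM. They were Mat2a (0.37), Atp1b3 (0.37), Col10a1 (0.40), Sar1a (0.47) and Acan (0.47), where the median gene was at 1.80. The collagens themselves were at 0.34 (Col2a1) to 0.77 (Col9a1) from their own mean. Acan was at 77.0, 400 and 139 RPKM in WT and at 53.8, 51.0 and 189 in Adamts17-/-. Mat2a, an S-adenosylmethionine synthetase subunit, was at 86.5, 232 and 132 in WT and at 31.6, 75.1 and 60.0 in Adamts17-/-.

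Among regulators of these collagen genes, SOX9 with SOX5 and SOX6 activates Col2a1, Col9 and Col11 genes through chondrocyte enhancers. Sox9 was at 11.4, 5.71 and 0.653 RPKM in WT and at 0.334, 0.153 and 13.4 in Adamts17-/- (log2 fold change -0.88 ± 1.48, SE). Its order did not follow that of Col2a1 in WT, where Sox9 was highest in replicate 1, the library with the lowest Col2a1 level, whereas in Adamts17-/- both were highest in replicate 3. Sox6 was at 17.1, 34.7 and 63.5 in WT and at 43.9, 9.19 and 4.06 in Adamts17-/- (-1.39 ± 1.41). Sox5 fell under the filter, at 5.25, 0.245 and 0.407 RPKM in WT and at 0.204, 0.0122 and 32.0 in Adamts17-/-.

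Proteins that share the fibril or the matrix around it mostly had lower means in Adamts17-/- as well. Of 13 listed partners found, 10 were tested, 8 with a lower and 2 with a higher mean in Adamts17-/-, none called by limma over all genes (median log2 fold change -1.06). Lect1, which encodes chondromodulin, Fmod, the fibril-binding proteoglycan fibromodulin, and Matn3, a matrilin that binds collagen fibrils, had the lowest values (-4.12 ± 1.58, -4.04 ± 1.498 and -3.47 ± 1.53, SE). Their unadjusted p-values were under 0.05 (limma, 0.0140, 0.0111 and 0.0303), as were those of 1.37% of all tested genes in this direction. These values rested in part on libraries at 0. Lect1 was at 49.7, 113 and 56.9 RPKM in WT and at 0, 0 and 63.3 in Adamts17-/-. Matn3 was at 11.5, 82.4 and 85.3 in WT and at 3.96, 12.4 and 0 in Adamts17-/-. For both the groups overlapped. Fmod was at 35.0, 32.1 and 3.27 in WT and at 0, 0 and 0.137 in Adamts17-/-. Dcn, the fibril-binding proteoglycan decorin, was at 0.71 ± 1.83 and the related Bgn at 0.15 ± 1.30.

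Among 15 other fibrillar, network and associated collagens 11 were tested, 9 with a lower and 2 with a higher mean, none called (median -1.48). The lowest were the collagen VI genes Col6a3 (-3.004 ± 1.56, SE) and Col6a1 (-2.56 ± 1.48), whose product forms the pericellular filaments. The pair with higher means, Col1a1 (1.14 ± 1.31) and Col1a2 (0.96 ± 1.25), encodes the collagen of bone and fibrous tissue. Col1a2 was at 607, 44.2 and 401 RPKM in WT and at 332, 3610 and 66.2 in Adamts17-/-. Its highest level was in Adamts17-/- replicate 2, the library that stood apart in erythroid and neutrophil genes. Col2a1 was about as low there (144 RPKM) as in Adamts17-/- replicate 1 (148), where Col1a2 was at 332.

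No gene of the enzymes that trim, fold, crosslink or cut collagen was called. Of 6 tested procollagen proteinases and their enhancers 3 had lower and 3 higher means (median -0.27). The N-proteinase genes Adamts14 and Adamts2 were at -2.29 ± 1.02 and -0.94 ± 1.40 (SE), and Adamts3, which removes the N-propeptide of procollagen II, at 1.27 ± 1.62. Pcolce2, a C-proteinase enhancer, was at 0.86 ± 1.59.

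Of 18 tested folding and crosslinking genes 15 had lower means (median -0.82). P3h1, a prolyl 3-hydroxylase, was at -3.10 ± 1.52 (SE) and Loxl3, a lysyl oxidase, at -3.07 ± 1.47, whereas Lox was at 1.29 ± 1.56 and Fkbp10, a collagen chaperone, at 1.03 ± 1.35. Of 8 tested collagenases and collagen receptors 7 had lower means (median -0.80). The collagenase Mmp13 (-2.09 ± 1.28, SE) and the gelatinase Mmp9 (-1.49 ± 1.17) were the lowest, and Mmp2 was at 1.05 ± 1.78.

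**Figure D5:**
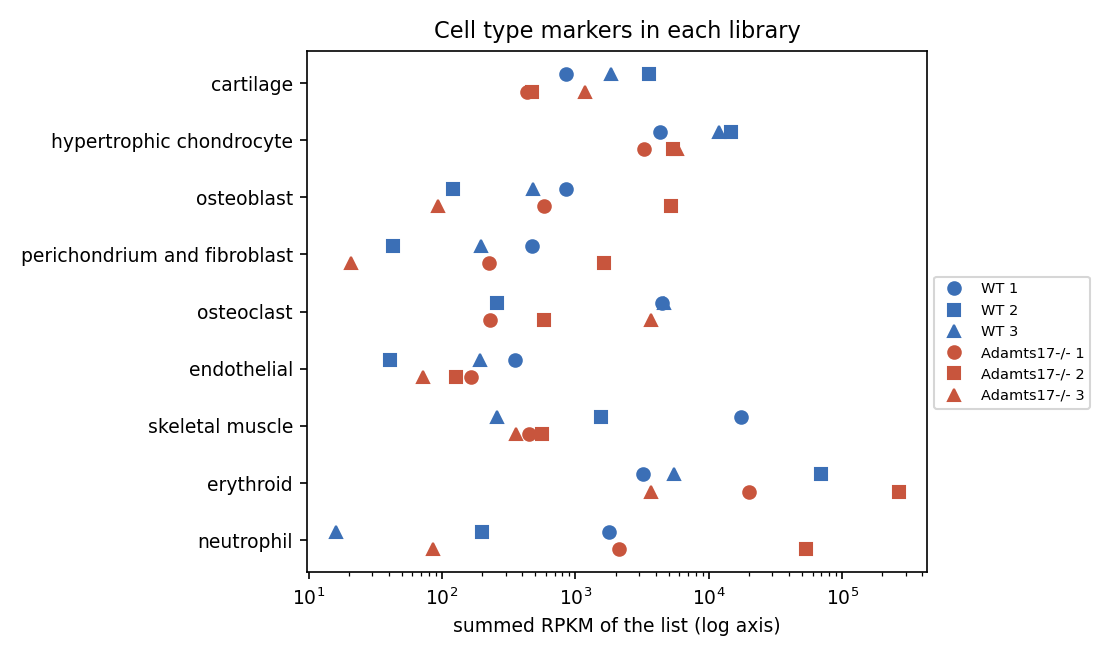
Summed RPKM of the marker genes of each cell type (log axis) in the 3 WT (blue) and 3 Adamts17-/- libraries (red). Skeletal muscle markers reach 17336 in WT replicate 1, and erythroid markers 264419 in Adamts17-/- replicate 2. The erythroid sums include both Hbb-b2 and Hbb-bt, whose values are identical.

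Summed RPKM of the 11 cartilage markers was 856 to 3580 in WT and 434 to 1177 in Adamts17-/-, and that of 10 hypertrophic chondrocyte markers was 4319 to 14782 and 3278 to 5821, most of it Col10a1 in WT replicate 2 (13347). Of 9 tested hypertrophic markers 4 had lower and 5 higher means in Adamts17-/- (median log2 fold change 0.11), none called by limma. Col10a1, Mmp13, Spp1 and Pth1r (-0.08 ± 0.97, SE) were on the lower side, and Ihh, Alpl, Ibsp, Runx2 and Panx3 on the higher. Markers of neighbouring cells varied between libraries beside these results. The summed RPKM of 13 skeletal muscle markers was 258 to 17336 in WT and 362 to 561 in Adamts17-/-, with up to 6 of them at 0 in a library. For 11 erythroid markers it was 3231 to 69748 in WT and 3712 to 264419 in Adamts17-/-, and for 7 neutrophil markers 15.96 to 1782 and 85.5 to 53125. It was 121 to 849 and 93.0 to 5188 for 8 osteoblast markers, of which Sost was at 0 in WT replicates 1 and 3. For 8 perichondrium and fibroblast markers it was 43.0 to 474 and 20.8 to 1650, for 8 osteoclast markers 257 to 4628 and 230 to 3692, and for 9 endothelial markers 41.1 to 351 and 72.7 to 164. The groups overlapped in each of these sums of neighbouring cell markers. Gene by gene, 9 of 9 tested muscle markers had lower means in Adamts17-/- (median log2 fold change -2.81). For erythroid markers 9 of 9 were higher (1.70), and for neutrophil markers 7 of 7 (2.23). None was called by limma. The sums did not split this way library by library. The muscle sum was 17336 in WT replicate 1 but 258 in WT replicate 3, under each Adamts17-/- library. In Adamts17-/- replicate 3 the neutrophil sum was 85.5, under WT replicates 1 (1782) and 2 (201). The erythroid sum there was 3712, under WT replicates 2 (69748) and 3 (5487). The counts were not repeated without WT replicate 1 and Adamts17-/- replicate 2. Col1a1 is in both the osteoblast and the perichondrium list. The erythroid markers Hbb-b2 and Hbb-bt had the same value in each library, so the erythroid sums and counts include that value 2 times. WT replicate 2, the library with the highest collagen levels, had the lowest osteoblast, perichondrium, osteoclast and endothelial sums of the WT group. The part of cell makeup in the collagen differences was not tested beyond leaving out the libraries named above.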

How the data were processed

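The authors deposited 1 table of gene values for 6 libraries, scaled by trimmed means of M-values per the name of the table. The unit was not named, and the deposited values were taken to be RPKM, since multiplying them by transcript length gave steps of 1 size per library. Of values from 1 to 20 read equivalents, 24.1% to 34.4% were whole within 0.01, so no count model was fitted. Aligner, counter and genome build were not given in the sources used here. Table starts of the 6 genes lay 0 to 518 bp from those of RefSeq GRCm38.p6. Values were tested as log2(RPKM + 1), for genes with at least 1 in at least 3 libraries, by limma 3.58.1 in R 4.3.3 (intensity trend, two-sided, Benjamini-Hochberg, threshold 0.05). The pseudocount makes differences of weakly expressed genes too small. Python 3.11.15, pandas 2.3.3 and scipy 1.17.1 made ratios and exact permutation tests. Repeats were counted as GGN codons in GENCODE transcripts matched by the table's RefSeq names. Named genes were the members, Adamts17, Col10a1, the largest differences in each list (up to 2 per direction, 3 for partners, all SOX genes) and the 5 most similar genes. The members and lists were chosen with earlier results of these data known.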

Additional observations from a re-analysis of the deposited data

How the results depend on the processing

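The 6 fold changes stayed below 0 and uncalled under all alternatives run: pseudocounts of 0.1 and 4, no filter, a minimum value of 5 (which left out Col11a2), upper-quartile and quantile scaling, no intensity trend, library weights, the replicate block, each library left out, WT replicate 1 and Adamts17-/- replicate 2 left out together, and scaling to equal sums of listed values, chosen after seeing the data. With library weights Col11a2 was at -0.00024, Col2a1 at -0.78 and Col9a1 at -1.03. The mean log2 difference of the 6 genes was -1.45 (leaving out 1 library, -1.79 to -0.99). Upper-quartile scaling moved the median of all genes by -0.23 and equal sums by -0.41, and moved the mean of the 6 genes to -1.73 and -1.96. With quantile normalization 3 of the 6 genes had an unadjusted limma p under 0.05, as had 259 of all 9128 genes. With equal sums 2 of the 6 did, against 253 of 9416 genes, and in every other setting 0 or 1 did. Over all genes 0 were called, against 1 with library weights, and 0 to 5 with 1 library left out. The log2 ratio of Col9a2 to Col2a1 differed by 0.15 without WT replicate 1 and Adamts17-/- replicate 2, and by -0.85 to 0.24 with 1 library left out. Col11a1 to Col2a1 then ran from -0.068 to 0.70 and Col2a1 to Col10a1 from -0.063 to 0.14, with 0.18 without both named libraries. The causes were not tested. Deviations from the group means correlated at -0.0075, -0.35 and -0.10 between libraries of 1 number, and at -0.17 to 0.22 between libraries of different numbers. With 3 libraries per group, these values cannot tell whether the libraries were paired. With the replicate block 0 genes were called, and Col2a1 was at -1.41 ± 1.33 (SE). Depth limits Col11a2 most.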
